A study of Homo sapiens with 9 samples.

Results

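The 10 genes LIFR, IL6ST, OSMR, STAT3, SOCS3, BCL3, PIM1, JUNB, SBNO2 and GADD45G were taken by symbol from a count table of 40332 gene symbols. All 10 were found, and all 10 are among the 15179 genes that passed the filter on low counts. RNA-seq had been done on H1, an established wild-type human embryonic stem cell line, in 9 libraries. Of these, 3 came from cells in N2B27 basal medium with 5 µM EPZ-6438 for 3 days, 3 from N2B27 alone and 3 from PXGL. EPZ-6438 blocks the catalytic activity of EZH2, which methylates histone H3 within the Polycomb complex PRC2. PXGL is a culture medium for naive human pluripotency that contains LIF and blocks MEK, protein kinase C and tankyrase. How long the cells without inhibitor were kept in N2B27 is not stated in these sources. Differences between the inhibitor group and N2B27 may therefore include a difference in time out of PXGL, which cannot be told apart from the inhibitor. All libraries came from 1 cell line, and nothing says that its replicates were grown apart. Each p-value therefore measures only the spread among libraries, 3 per group and estimated over all 9 together, which may be technical.

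LIF binds LIFR, which pairs with the shared subunit gp130, the product of IL6ST. Oncostatin M binds OSMR, which pairs with the same subunit. The receptor-bound JAK kinases then phosphorylate STAT3, which enters the nucleus and switches on genes that include its own feedback inhibitor SOCS3. In mouse embryonic stem cells this pathway sustains self-renewal, and LIF is a component of the media used for naive human cells.

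Total counts were 14719626 to 16479602 in the inhibitor libraries, 14482105 to 15295208 in N2B27 and 17499688 to 18358530 in PXGL. PXGL replicate 1 stood apart: its counts differed from those of PXGL replicates 2 and 3 by a chi-square per degree of freedom of 19.6 and 26.3, against 2.57 to 3.67 for every other replicate pair. All 8 human embryonic stem cell markers were counted in every group, with a summed level of 5109 to 5177 CPM in the inhibitor libraries, 6342 to 6429 CPM in N2B27 and 4546 to 4774 CPM in PXGL. Levels are CPM, read counts scaled to library size by edgeR's TMM method, and are given per library or as mean ± SD with n = 3 per group. A gene was called where edgeR's quasi-likelihood test gave a Benjamini-Hochberg adjusted p under 0.05 over 15179 genes. By this rule all 8 embryonic stem cell markers were lower with the inhibitor than in N2B27, where 10.6% of all tested genes were lower. Their falls ranged from 1.16-fold for LIN28A to 1.83-fold for SOX2. In N2B27 against PXGL 5 of them were higher and 1 lower, where 27.3% and 28.7% of all tested genes were. In bulk samples fewer cells of a type and less RNA per cell cannot be told apart.

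The 3 receptor genes lie on chromosome 5, and their start regions are shown because these genes rose together with EPZ-6438. EZH2 and its partners are known to bind CpG-rich start regions. The sequences are RefSeq windows of the GRCh38.p14 assembly, from 250 bases before to 50 bases after the start, written 5′ to 3′ on the gene's strand, with each CpG in capitals. LIFR has several listed starts, and the window shown first, chr5:38556597-38556896 on the minus strand, is the one of them with the most CpGs. The windows of IL6ST (chr5:55994914-55995213, minus strand) and OSMR (chr5:38845762-38846061, plus strand) follow.
LIFR: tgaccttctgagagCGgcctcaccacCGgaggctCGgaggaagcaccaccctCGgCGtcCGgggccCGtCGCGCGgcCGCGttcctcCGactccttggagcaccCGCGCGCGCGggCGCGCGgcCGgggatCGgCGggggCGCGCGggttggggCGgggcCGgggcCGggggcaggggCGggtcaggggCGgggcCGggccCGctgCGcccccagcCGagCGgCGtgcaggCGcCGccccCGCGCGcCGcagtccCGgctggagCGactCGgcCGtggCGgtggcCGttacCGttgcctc
IL6ST: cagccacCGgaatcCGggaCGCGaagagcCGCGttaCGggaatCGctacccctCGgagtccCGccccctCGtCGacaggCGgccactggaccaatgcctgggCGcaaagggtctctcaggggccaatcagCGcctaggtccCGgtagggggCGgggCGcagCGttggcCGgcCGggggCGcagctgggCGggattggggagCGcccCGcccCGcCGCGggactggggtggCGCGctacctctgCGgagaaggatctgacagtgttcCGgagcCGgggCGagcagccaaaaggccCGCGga
OSMR: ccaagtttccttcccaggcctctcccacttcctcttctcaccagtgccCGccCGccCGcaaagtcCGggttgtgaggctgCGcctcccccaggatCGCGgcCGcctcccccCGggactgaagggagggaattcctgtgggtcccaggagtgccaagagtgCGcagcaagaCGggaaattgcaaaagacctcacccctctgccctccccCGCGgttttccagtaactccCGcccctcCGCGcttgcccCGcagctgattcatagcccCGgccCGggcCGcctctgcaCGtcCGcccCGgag
The LIFR window held 51 CpGs, more than 99.0% of all 35116 listed windows, the IL6ST window 36 (more than 87.3%) and the OSMR window 23 (more than 64.2%). The median over all windows was 14. Of the genes that did not rise with EPZ-6438 against N2B27, SOCS3 had 34 and 17 CpGs in its windows and JUNB 29. SBNO2 had 30 and 24, and STAT3 23. PIM1, BCL3 and GADD45G, which were called higher, had 39, 35 and 25. A link between CpG counts and these changes was not tested.

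A second pair of sequences is shown for the letters that STAT3 dimers prefer, TTCNNNGAA, which reads the same on both strands. It was found in 2 of the 14 windows of these genes, both belonging to other starts of LIFR, and in 7.66% of all windows. The narrower form TTCCNGGAA, which is contained in the first motif, was in 1.15% of all windows and in none of the 14. The match is in capitals in the windows chr5:38595356-38595655 and chr5:38557418-38557717, both on the minus strand, and begins 165 and 182 bases before the start.
LIFR upstream: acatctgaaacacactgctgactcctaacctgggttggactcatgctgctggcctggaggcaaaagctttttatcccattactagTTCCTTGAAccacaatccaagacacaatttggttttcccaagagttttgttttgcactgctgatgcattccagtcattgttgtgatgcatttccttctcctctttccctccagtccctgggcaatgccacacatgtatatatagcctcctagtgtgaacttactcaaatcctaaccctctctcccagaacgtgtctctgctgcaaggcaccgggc
LIFR middle: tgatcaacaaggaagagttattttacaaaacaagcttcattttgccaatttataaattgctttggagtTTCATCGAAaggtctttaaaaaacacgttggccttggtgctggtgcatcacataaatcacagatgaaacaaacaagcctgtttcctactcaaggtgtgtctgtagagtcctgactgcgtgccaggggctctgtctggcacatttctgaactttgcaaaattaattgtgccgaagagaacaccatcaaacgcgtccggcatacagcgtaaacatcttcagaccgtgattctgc
These windows held 2 and 9 CpGs. A match is a description of letters and not a binding site, and its absence from the windows of SOCS3 and the other genes says only that these letters are not there.

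With EPZ-6438, all 3 receptor genes rose against N2B27, and 3 of the 6 STAT3 target genes rose as well. STAT3 itself fell. In all, 6 of the 10 genes were called higher and 1 lower, against 14.2% and 10.6% of all tested genes, or 24.7% in either direction. Without PXGL replicate 1, 5770 genes were called in place of 3752, with 6 of the 10 higher and 1 lower as before. The median log2 fold change of the 10 genes was 0.49, and that of all tested genes 0.01. The values of the inhibitor and N2B27 libraries did not overlap for 7 of the 10 genes, as for 46.4% of all tested genes.

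N2B27 lacks the naive additions of PXGL, LIF among them. In the comparison of N2B27 with PXGL, no receptor gene and not STAT3 was called, while 5 of the 6 target genes were. SOCS3 and PIM1 rose, and BCL3, JUNB and SBNO2 fell. That made 2 genes higher and 3 lower, where 27.3% and 28.7% of all tested genes were called, so the share called, 5 of 10, was near the background of 56.0%. The groups did not overlap for the same number, 5 of 10, against 60.8% of all tested genes. Median log2 fold changes were -0.08 for the 10 genes and -0.03 for all tested genes.

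The inhibitor group against PXGL shares its libraries with both comparisons above. In it 5 genes were higher (LIFR, IL6ST, OSMR, SOCS3 and PIM1) and 4 lower (STAT3, BCL3, JUNB and SBNO2), where 28.1% and 28.0% of all tested genes were called, 56.1% together. GADD45G was not called. The groups did not overlap for any of the 10 genes, against 60.7% of all tested genes without overlap. Median log2 fold changes were 0.70 for the 10 genes and -0.002 for all tested genes.

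**Figure D1:**
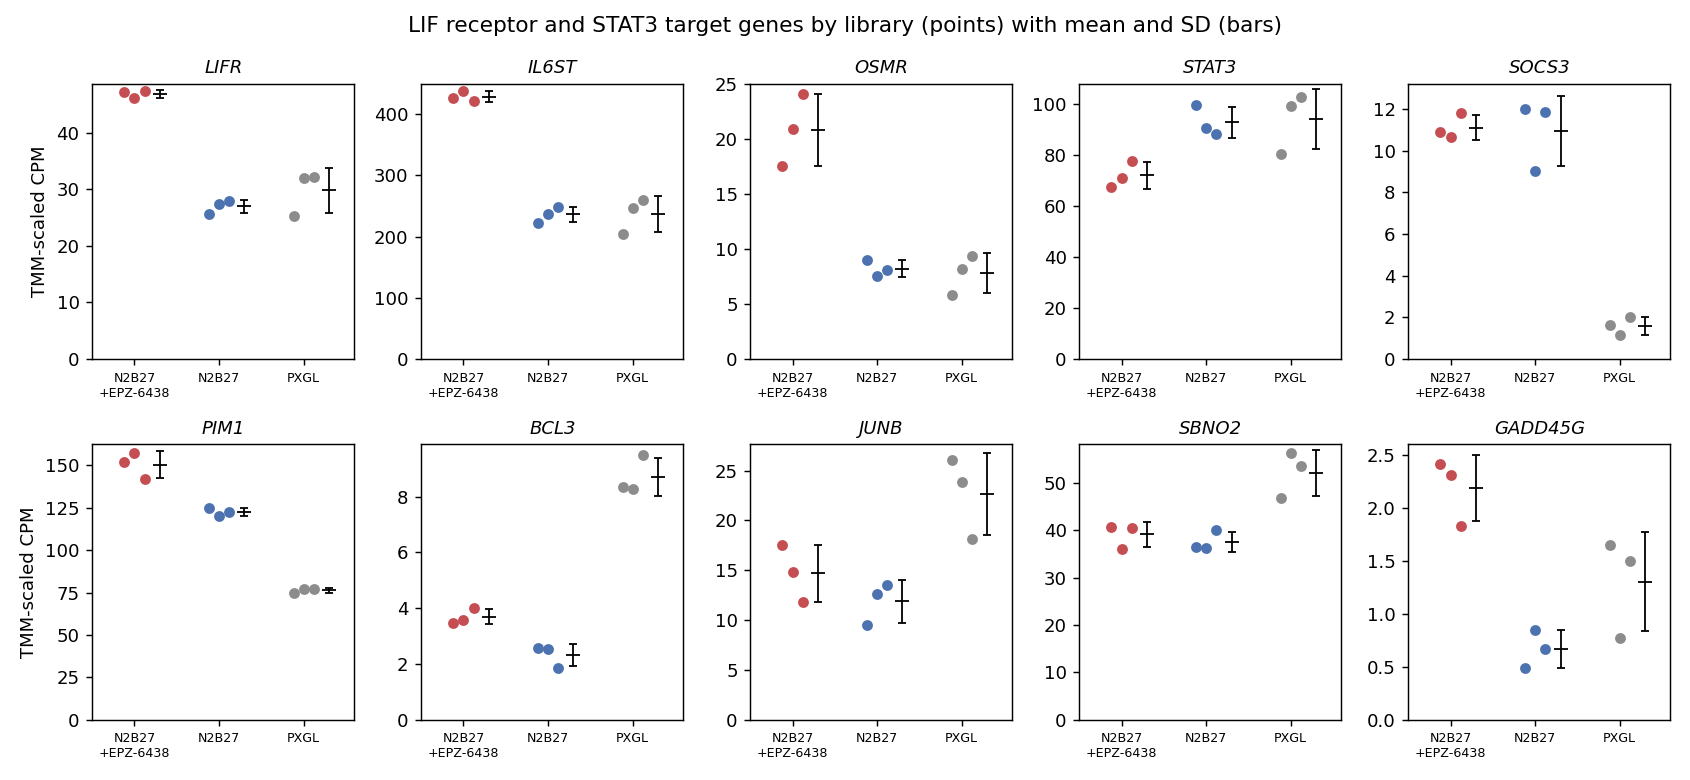
TMM-scaled CPM (linear axes from 0) of the 10 genes in each of the 9 libraries, with points for libraries and bars for mean and SD. The 3 receptor genes are highest in the inhibitor libraries, SOCS3 is between 1.15 and 2.00 CPM in PXGL and at least 9.0 CPM elsewhere, and BCL3 is highest in PXGL.

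IL6ST (chromosome 5, 55935095 to 55994993, hg38, minus strand) encodes gp130, the signalling subunit shared by the receptors of the IL-6 family. It had 426, 438 and 421 CPM in the inhibitor libraries, 223, 237 and 249 CPM in N2B27 and 204, 247 and 260 CPM in PXGL. Every inhibitor library stood above every other library, and N2B27 and PXGL overlapped. IL6ST rose 1.81-fold against N2B27 (log2 0.86, SE 0.08, adjusted p = 6.27e-07) and 1.81-fold against PXGL (adjusted p = 1.18e-07). Between N2B27 and PXGL the log2 difference was -0.006, with a 95% interval of -0.17 to 0.16 (adjusted p = 0.953). Without PXGL replicate 1, the lowest of the PXGL libraries, it was -0.10 and called (adjusted p = 0.0341).

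LIFR (chromosome 5, 38474963 to 38608354, minus strand) encodes the LIF-binding subunit. It had 47.2, 46.1 and 47.4 CPM in the inhibitor libraries, 25.7, 27.49 and 27.9 CPM in N2B27 and 25.2, 32.0 and 32.3 CPM in PXGL. The 3 inhibitor libraries lay close together and above all 6 others. LIFR rose 1.73-fold against N2B27 (log2 0.79, SE 0.10, adjusted p = 1.45e-05) and 1.57-fold against PXGL (adjusted p = 2.31e-05). N2B27 and PXGL overlapped, at a log2 difference of -0.14 with an interval of -0.35 to 0.07 (adjusted p = 0.235). Without PXGL replicate 1 the log2 difference was -0.25 and called (adjusted p = 0.0122). The antisense gene LIFR-AS1, whose exons overlap those of LIFR over 629 bases, had 1 to 9 counts per library.

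OSMR (chromosome 5, 38845858 to 38945596, plus strand) encodes the oncostatin M subunit. It had 17.6, 20.9 and 24.1 CPM in the inhibitor libraries, 9.05, 7.59 and 8.07 CPM in N2B27 and 5.87, 8.22 and 9.38 CPM in PXGL. The inhibitor libraries were spread more widely than for LIFR, but none reached down to the other groups. OSMR rose 2.53-fold against N2B27 (log2 1.34, SE 0.17, adjusted p = 1.67e-05) and 2.67-fold against PXGL (adjusted p = 1.78e-06). The log2 difference between N2B27 and PXGL was 0.07, with an interval of -0.30 to 0.45 (adjusted p = 0.737), and without PXGL replicate 1 it was -0.095 (adjusted p = 0.626). RICTOR, a subunit of the mTORC2 kinase on the opposite strand, overlaps the exons of OSMR over 229 bases and had 707 to 1063 counts per library. Strandedness is not given, so reads there cannot be told apart. RICTOR averaged 63.6 ± 2.49 CPM in the inhibitor libraries and 57.7 ± 4.16 CPM in N2B27, a difference that did not pass (adjusted p = 0.314). Against its 46.5 ± 6.76 CPM in PXGL it was called higher, 1.37-fold with the inhibitor (adjusted p = 0.000797) and 1.24-fold in N2B27 (adjusted p = 0.0122).

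The ratio of OSMR to LIFR CPM was 0.373, 0.454 and 0.509 in the inhibitor libraries, 0.352, 0.276 and 0.290 in N2B27 and 0.233, 0.257 and 0.291 in PXGL. Every inhibitor library had a higher ratio than every other library. Geometric means were 0.442 with the inhibitor and 0.304 in N2B27, with p = 0.1 in a two-sided exact permutation test, the smallest p that 3 against 3 allows.

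Markers of other cell types also differed between the groups, not all in the direction of the receptor genes. The summed level of 7 hypoblast markers was 56.2 to 61.7 CPM in the inhibitor libraries, 28.8 to 29.2 CPM in N2B27 and 38.7 to 47.5 CPM in PXGL, with APOA1 at 0 throughout. HNF4A averaged 21.0 CPM with the inhibitor, 8.31 CPM in N2B27 and 29.4 CPM in PXGL. GATA4 averaged 22.7 CPM with the inhibitor, 13.97 CPM in N2B27 and 7.60 CPM in PXGL, and GATA6 7.97 CPM with the inhibitor, 0.731 CPM in N2B27 and 0.312 CPM in PXGL. All 3 rose with the inhibitor against N2B27, while in N2B27 against PXGL HNF4A fell and GATA4 and GATA6 rose. PDGFRA did not pass, at 5.57 CPM with the inhibitor and 5.74 CPM in N2B27 (adjusted p = 0.907). SOX17 and FOXA2 were too low to be tested. That of 8 trophectoderm markers was 1021 to 1052 CPM with the inhibitor, 851 to 862 CPM in N2B27 and 137 to 177 CPM in PXGL, with VGLL1 at 0 throughout. KRT18 alone gave 995 to 1022 CPM of it with the inhibitor, 837 to 847 CPM in N2B27 and 123 to 164 CPM in PXGL. Of the 7 tested, CDX2, GATA3, TFAP2A and KRT18 rose with the inhibitor against N2B27 and 0 fell, against 14.2% and 10.6% of all tested genes. In N2B27 against PXGL 2 rose (KRT18 and KRT7) and 3 fell (TFAP2A, CDX2 and GATA3), where 27.3% and 28.7% of all tested genes did. CDX2 averaged 2.45 CPM with the inhibitor, 0.0457 CPM in N2B27 and 0.531 CPM in PXGL. In the same order TFAP2A averaged 1.54, 0.163 and 2.74 CPM and GATA3 6.68, 2.04 and 3.265 CPM. The summed level of 9 fibroblast markers was 94.4 to 96.0 CPM with the inhibitor, 167 to 182 CPM in N2B27 and 18.4 to 23.4 CPM in PXGL. Of the 9, 8 were counted with the inhibitor (DCN at 0), 6 in N2B27 (COL3A1, LUM and DCN at 0) and 7 in PXGL (LUM and POSTN at 0). THY1 alone gave 40.1 to 46.3 CPM with the inhibitor, 109 to 124 CPM in N2B27 and under 1 CPM in PXGL. COL1A1 averaged 19.2 CPM with the inhibitor, 25.6 CPM in N2B27 and 14.0 CPM in PXGL, and COL1A2 23.3, 28.4 and 2.48 CPM. Like THY1, both fell with the inhibitor against N2B27, where PDGFRB did not pass, and rose in N2B27 against PXGL. TWIST1 of the same list moved the other way, at 7.35 CPM with the inhibitor, 1.66 CPM in N2B27 and 2.93 CPM in PXGL, and rose 4.42-fold with the inhibitor against N2B27 (adjusted p = 2.5e-05). Whether these sums, which single genes can dominate, reflect the presence of such cells was not tested. The part of these cell types in the receptor levels was not tested either.

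LIFR and OSMR are neighbours on 5p13, 237503 bases apart. EGFLAM, which encodes an extracellular matrix protein, ends 9941 bases from LIFR. EGFLAM had 42, 44.9 and 42.4 CPM in the inhibitor libraries, 13.6, 10.8 and 8.80 CPM in N2B27 and 18.2, 16.7 and 15.8 CPM in PXGL. It rose 3.90-fold against N2B27 (log2 1.96, SE 0.13, adjusted p = 9.89e-09) and fell 1.53-fold in N2B27 against PXGL (adjusted p = 0.000882). Of 6 neighbouring gene names looked up, EGFLAM and RICTOR passed the filter, and the others, such as OSMR-DT with 0 to 5 counts per library, were not tested.

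**Figure D2:**
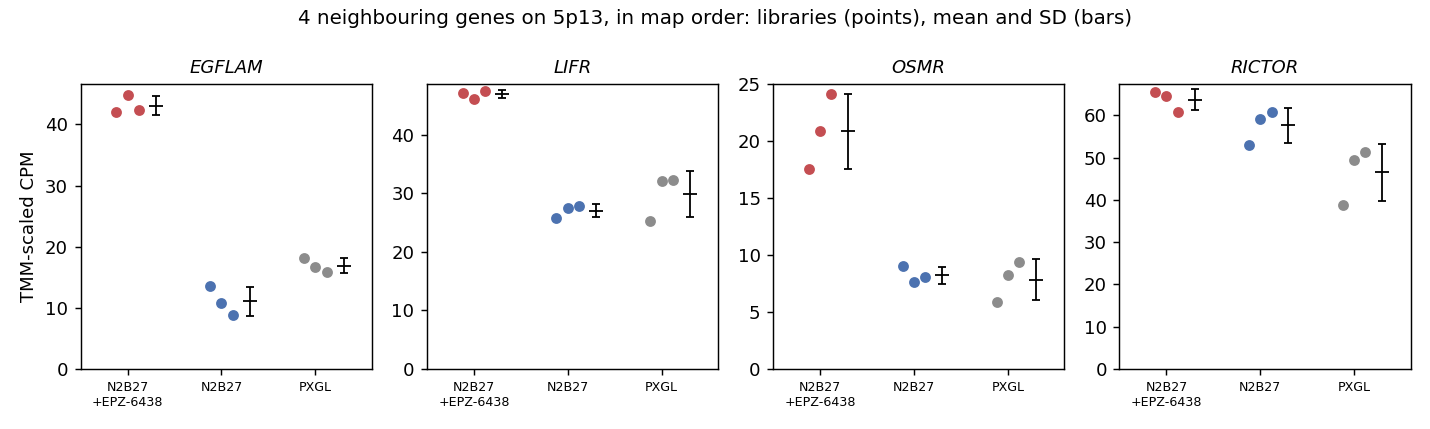
TMM-scaled CPM (linear axes from 0) of EGFLAM, LIFR, OSMR and RICTOR, in the order in which they lie on 5p13, by library, with mean and SD. The inhibitor libraries are above all others for EGFLAM, LIFR and OSMR, while RICTOR averages 63.6 CPM with the inhibitor and 57.7 CPM in N2B27.

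STAT3 (chromosome 17, 42313324 to 42388568), the transcription factor of the pathway, moved opposite to the receptor genes. It had 67.6, 71.0 and 77.9 CPM in the inhibitor libraries, 99.6, 90.6 and 88.4 CPM in N2B27 and 80.6, 99.4 and 103 CPM in PXGL. All inhibitor libraries were below all others, by a narrow margin to PXGL replicate 1. STAT3 fell 1.29-fold against N2B27 (log2 -0.36, SE 0.09, adjusted p = 0.00717) and 1.31-fold against PXGL (adjusted p = 0.00165). The call against N2B27 ended without N2B27 replicate 1, the highest of its group (log2 -0.31, adjusted p = 0.0502). N2B27 and PXGL overlapped, at a log2 difference of -0.02 with an interval of -0.21 to 0.17 (adjusted p = 0.856).

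SOCS3 (chromosome 17, 78356778 to 78360077) encodes the feedback inhibitor that binds gp130 and JAK kinases, and is a classical direct target of STAT3. It had 10.9, 10.6 and 11.8 CPM in the inhibitor libraries, 11.98, 9.0 and 11.9 CPM in N2B27 and 1.65, 1.15 and 2.00 CPM in PXGL, the medium that contains LIF. In counts, PXGL libraries held 21 to 36 and N2B27 libraries 128 to 178. SOCS3 was 6.83-fold higher in N2B27 than in PXGL (log2 2.77, SE 0.20, adjusted p = 6.89e-09), the largest change among the 10 genes in that comparison. The inhibitor and N2B27 libraries overlapped, with a log2 difference of 0.02 and an interval of -0.33 to 0.37 (adjusted p = 0.951). Against PXGL the inhibitor group was 6.92-fold higher (adjusted p = 6.35e-09).

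PIM1 (chromosome 6, 37170203 to 37175426), a serine/threonine kinase gene induced by STAT3 and other STATs, also rose in N2B27 against PXGL. It had 152, 157 and 142 CPM in the inhibitor libraries, 125, 120 and 123 CPM in N2B27 and 74.8, 77.4 and 77.2 CPM in PXGL. The 3 groups were fully separated. PIM1 rose 1.60-fold in N2B27 against PXGL (log2 0.68, SE 0.06, adjusted p = 1.16e-07) and 1.23-fold with the inhibitor against N2B27 (log2 0.30, SE 0.06, adjusted p = 0.00197). Against PXGL the inhibitor group was 1.97-fold higher (adjusted p = 1.32e-09).

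BCL3 (chromosome 19, 44747705 to 44760044) encodes a nuclear IκB-family cofactor. It had 3.49, 3.59 and 4.0 CPM in the inhibitor libraries, 2.58, 2.53 and 1.87 CPM in N2B27 and 8.34, 8.27 and 9.50 CPM in PXGL. It was the gene of the set that fell most in N2B27 against PXGL, 3.74-fold (log2 -1.90, SE 0.19, adjusted p = 3.89e-07). The inhibitor libraries were above N2B27 by 1.59-fold (log2 0.67, SE 0.21, adjusted p = 0.0281), still below PXGL by 2.35-fold (adjusted p = 2.28e-05). The call against N2B27 rested on few counts, 52 to 59 per library with the inhibitor and 28 to 37 in N2B27. It ended without N2B27 replicate 3 (adjusted p = 0.117), inhibitor replicate 2 (0.0570) or inhibitor replicate 3 (0.0898), with DESeq2's test (0.0512) and with no low-count filter (0.0527).

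JUNB (chromosome 19, 12791496 to 12793315), which encodes an AP-1 subunit, had 17.5, 14.8 and 11.8 CPM in the inhibitor libraries, 9.47, 12.6 and 13.5 CPM in N2B27 and 26.1, 23.8 and 18.1 CPM in PXGL. It fell 1.91-fold in N2B27 against PXGL (log2 -0.93, SE 0.17, adjusted p = 0.000191) and 1.54-fold with the inhibitor against PXGL (adjusted p = 0.00406). The inhibitor and N2B27 libraries overlapped (log2 0.31, interval -0.06 to 0.68, adjusted p = 0.220). HOOK2, on the opposite strand, overlaps the exons of JUNB over 259 bases and cannot be told apart there. HOOK2 averaged 17.9 ± 0.333 CPM with the inhibitor, 23.0 ± 1.32 CPM in N2B27 and 32.4 ± 0.841 CPM in PXGL, and fell 1.41-fold in N2B27 against PXGL (adjusted p = 0.000172).

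SBNO2 (chromosome 19, 1107636 to 1174283), a helicase-family corepressor gene induced by IL-10 and STAT3 in macrophages, had 40.7, 36.1 and 40.5 CPM in the inhibitor libraries, 36.4, 36.2 and 39.9 CPM in N2B27 and 46.7, 56.2 and 53.5 CPM in PXGL. Both N2B27 groups were below every PXGL library and overlapped each other. SBNO2 fell 1.39-fold in N2B27 against PXGL (log2 -0.47, SE 0.09, adjusted p = 0.000273) and 1.33-fold with the inhibitor against PXGL (adjusted p = 0.000806). Between the inhibitor and N2B27 the log2 difference was 0.06, with an interval of -0.14 to 0.25 (adjusted p = 0.688).

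GADD45G (chromosome 9, 89605013 to 89606555), a growth-arrest and stress gene, was the least counted of the 10, with 36, 38 and 27 counts in the inhibitor libraries, 7, 12 and 10 in N2B27 and 30, 14 and 27 in PXGL. Its levels were 2.19 ± 0.312 CPM with the inhibitor, 0.666 ± 0.178 CPM in N2B27 and 1.30 ± 0.471 CPM in PXGL. The inhibitor libraries were above both other groups, which overlapped. GADD45G rose 3.26-fold with the inhibitor against N2B27 (log2 1.70, SE 0.41, adjusted p = 0.00517). Against PXGL it did not pass (log2 0.74, interval -0.03 to 1.51, adjusted p = 0.0931). N2B27 against PXGL did not pass (log2 -0.96, interval -1.85 to -0.08, adjusted p = 0.0605), but was called without PXGL replicate 2 (log2 -1.23, adjusted p = 0.0218).

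**Figure D3:**
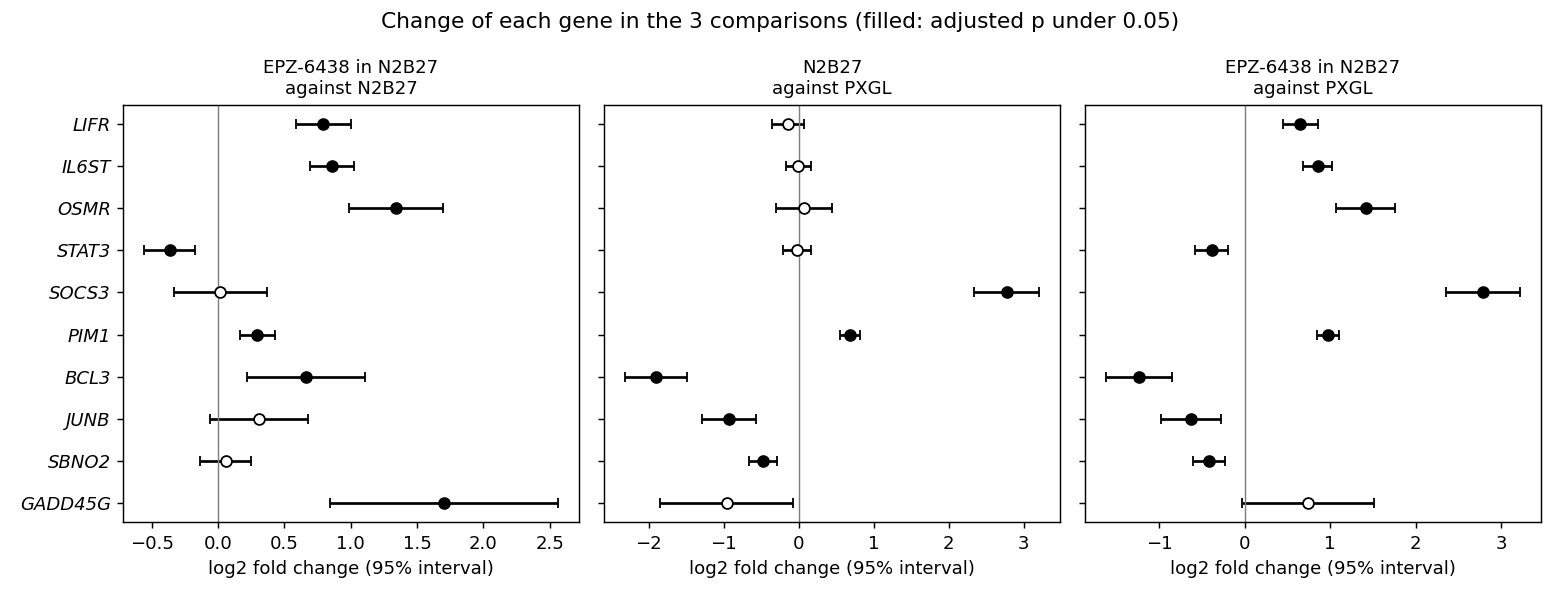
Log2 fold change of each of the 10 genes (points) with its 95% interval (bars) in the 3 comparisons, filled where the adjusted p was under 0.05. In the left panel the 3 receptor genes lie between 0.79 and 1.34 and STAT3 at -0.36, while in the middle panel the receptor genes and STAT3 lie near 0, SOCS3 is at 2.77 and BCL3 at -1.90.

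Levels of different genes were compared per kilobase of exon. With EPZ-6438, PIM1 was highest at 50.5 ± 2.6 CPM per kilobase, followed by IL6ST (46.1 ± 0.935), STAT3 (8.19 ± 0.597), JUNB (8.08 ± 1.57) and SBNO2 (5.90 ± 0.390). Below them came SOCS3 (4.06 ± 0.225), LIFR (3.95 ± 0.0580), OSMR (2.91 ± 0.457), GADD45G (1.65 ± 0.236) and BCL3 (1.14 ± 0.0836). In this order STAT3 and JUNB, and SOCS3 and LIFR, did not differ beyond their SDs. The shared subunit IL6ST stood far above its partners LIFR and OSMR in CPM per kilobase.

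In N2B27 the order was PIM1 (41.2 ± 0.739 CPM per kilobase), IL6ST (25.4 ± 1.39), STAT3 (10.5 ± 0.679), JUNB (6.52 ± 1.17), SBNO2 (5.66 ± 0.316), SOCS3 (4.01 ± 0.618), LIFR (2.28 ± 0.0982), OSMR (1.15 ± 0.104), BCL3 (0.717 ± 0.123) and GADD45G (0.504 ± 0.135). JUNB and SBNO2, and BCL3 and GADD45G, did not differ beyond their SDs. In PXGL it was PIM1 (25.7 ± 0.490), IL6ST (25.5 ± 3.17), JUNB (12.5 ± 2.25), STAT3 (10.7 ± 1.35), SBNO2 (7.87 ± 0.736), BCL3 (2.68 ± 0.213), LIFR (2.51 ± 0.336), OSMR (1.09 ± 0.250), GADD45G (0.986 ± 0.356) and SOCS3 (0.585 ± 0.156). There PIM1 and IL6ST, JUNB and STAT3, BCL3 and LIFR, OSMR and GADD45G, and GADD45G and SOCS3 did not differ beyond their SDs. SOCS3 was last of the 10 in PXGL and sixth in both N2B27 groups.

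The genes with patterns most like SOCS3 were found by the Euclidean distance of centred log2 CPM over the 9 libraries, among 11124 genes with a mean of at least 5 CPM. They were EMB at a distance of 0.561, SLFN12 at 0.614 and COL7A1 at 0.621. EMB, which encodes the adhesion protein embigin, averaged 80.1 CPM with the inhibitor, 78.5 CPM in N2B27 and 12.96 CPM in PXGL. For OSMR the nearest were PRSS23 at 0.517, PEG10 at 0.541 and BACH2 at 0.566. PRSS23, a serine protease gene, averaged 29.2 CPM with the inhibitor, 9.99 CPM in N2B27 and 10.2 CPM in PXGL.

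A wider list of 75 genes of the IL-6 family, JAK-STAT signalling and STAT3 targets was read for context, of which 62 passed the filter. With the inhibitor against N2B27, 15 rose, 5 fell and 42 did not pass, where 14.2% of all tested genes rose and 10.6% fell, with a median log2 fold change of 0.11 against 0.01 for all tested genes. In N2B27 against PXGL, 22 rose, 19 fell and 21 did not pass, where 27.3% of all tested genes rose and 28.7% fell (median -0.08, all tested genes -0.03). With the inhibitor against PXGL, 23 rose, 15 fell and 24 did not pass, where the shares of all tested genes were 28.1% and 28.0% (median 0.06, all tested genes -0.002). Whether the list differed from these backgrounds was not tested. The same backgrounds apply to the smaller lists that follow.

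Among 11 ligand genes 6 were tested, and 3 rose with the inhibitor against N2B27. LIF had 26.5, 30.5 and 27.3 CPM in the inhibitor libraries, 19.3, 17.2 and 19.8 CPM in N2B27 and 12.7, 15.0 and 14.3 CPM in PXGL. The 3 groups did not overlap, and LIF rose 1.5-fold with the inhibitor (adjusted p = 0.000691) and 1.34-fold in N2B27 against PXGL (adjusted p = 0.00377). IL6, which signals through IL6R and gp130, had 15.0, 15.2 and 11.9 CPM in the inhibitor libraries, 7.59, 7.52 and 7.54 CPM in N2B27 and 3.07, 3.18 and 2.50 CPM in PXGL. It rose 1.86-fold with the inhibitor (adjusted p = 0.000311) and 2.58-fold in N2B27 against PXGL (adjusted p = 4.02e-06). IL11 rose 2.55-fold with the inhibitor (adjusted p = 0.00723). CNTF rose 2.45-fold in N2B27 against PXGL (adjusted p = 0.00617), and IL11 fell 2.06-fold (adjusted p = 0.0149). OSM, the ligand of OSMR, was not tested, with 1, 0 and 2 counts in the inhibitor libraries and none in N2B27 and PXGL.

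Among the other receptor genes, 5 of 6 were tested. IL6R, the IL-6 subunit, was at 87.1 ± 0.0618 CPM with the inhibitor, 60.8 ± 1.19 CPM in N2B27 and 89.6 ± 9.66 CPM in PXGL. It rose 1.43-fold with the inhibitor against N2B27 (adjusted p = 0.00011) and fell 1.48-fold in N2B27 against PXGL (adjusted p = 1.19e-05). CNTFR, the ciliary neurotrophic factor subunit, rose 7.22-fold with the inhibitor against N2B27 (adjusted p = 0.000311), where it had only 1, 5 and 11 counts. It fell 6.04-fold in N2B27 against PXGL (adjusted p = 0.000232), and the inhibitor group against PXGL did not pass (adjusted p = 0.572). IL27RA fell 2.46-fold with the inhibitor against N2B27 (adjusted p = 2.88e-05). Of 4 JAK kinase genes, JAK1 rose 1.33-fold with the inhibitor (adjusted p = 0.000411) and the other 3 did not pass. TYK2 fell 2.00-fold in N2B27 against PXGL (adjusted p = 2.66e-07). Of the other STAT genes, STAT2 rose 1.46-fold with the inhibitor against N2B27 (adjusted p = 0.00134) and STAT5B fell 1.57-fold (adjusted p = 0.00016).

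Among 14 tested negative regulators, 3 rose (SOCS2, SOCS4 and PIAS1) and 1 fell (PIAS2) with the inhibitor against N2B27, and 3 rose (SOCS1, SOCS6 and SOCS7) and 7 fell in N2B27 against PXGL. Of all tested genes 24.7% and 56.0% were called in these comparisons. SOCS1, a relative of SOCS3, rose 1.71-fold in N2B27 against PXGL (adjusted p = 0.00028), and SOCS2 fell 1.67-fold (adjusted p = 0.000627). With the inhibitor SOCS2 rose 1.65-fold against N2B27 (adjusted p = 0.00265). The phosphatase gene PTPN6 fell 1.85-fold in N2B27 against PXGL (adjusted p = 1.35e-06). None of 6 adaptor genes was called with the inhibitor against N2B27, while in N2B27 against PXGL PTPN11 rose and GAB1 and GRB2 fell.

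Of 18 other tested genes known as STAT3 targets in various cells, 11 rose in N2B27 against PXGL, 1 fell (MCL1) and 6 did not pass, where 27.3% of all tested genes rose and 28.7% fell, with a median log2 fold change of 0.50. Among them were MYC, at 42.1 ± 1.98 CPM with the inhibitor, 50.2 ± 3.12 CPM in N2B27 and 2.73 ± 1.03 CPM in PXGL, and CCND1 and FOS, which rose 2.23-fold and 3.81-fold in N2B27 against PXGL. With the inhibitor against N2B27, 3 of the 18 rose (CCND1, TIMP1 and IER3), 2 fell (PIM2 and BCL2L1) and 13 did not pass, against 24.7% of all tested genes called. CCND1 rose 1.25-fold and TIMP1 1.55-fold, and PIM2, a kinase related to PIM1, fell 1.67-fold (adjusted p = 1.19e-06).

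KLF4, KLF5, TFCP2L1 and GBX2 are transcription factor genes induced by LIF and STAT3 in mouse embryonic stem cells. In N2B27 against PXGL, KLF4, KLF5 and TFCP2L1 fell and GBX2 rose. TFCP2L1 was at 211 ± 14.0 CPM with the inhibitor, 231 ± 8.47 CPM in N2B27 and 295 ± 32.4 CPM in PXGL, and fell 1.28-fold in N2B27 against PXGL (adjusted p = 0.000903). GBX2 was at 11.5 ± 0.936 CPM with the inhibitor, 8.74 ± 0.647 CPM in N2B27 and 0.642 ± 0.221 CPM in PXGL. With the inhibitor against N2B27, KLF4 rose 1.41-fold (adjusted p = 0.000132) and the other 3 did not pass.

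**Figure D4:**
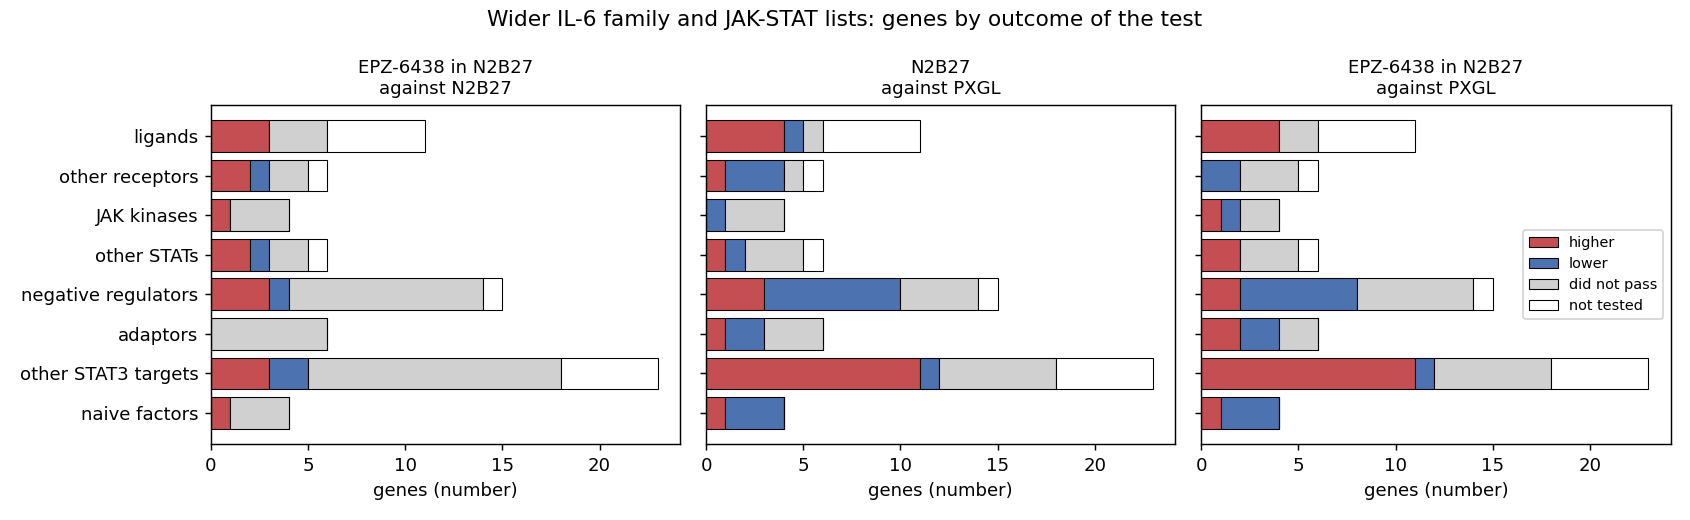
Number of genes (linear axis) in 8 lists around the pathway that were called higher, called lower, did not pass or were not tested in each of the 3 comparisons. Other STAT3 targets hold 11 genes higher in N2B27 against PXGL and 3 higher with the inhibitor against N2B27, and ligands hold 3 genes higher and none lower with the inhibitor.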

How the data were processed

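RNA-seq of 9 H1 libraries, 3 per group, was analysed. The authors deposited expected counts per gene symbol for every library, as 1 table. These estimates need not be whole, and between 7.13% and 8.09% of values per library were not. STAR 2.7.6a, Trim Galore, DESeq2 and hg38 are named per the submitters' processing notes, without their roles. The counting program, annotation and strandedness are not stated. Per the labels' protocols, libraries were made by ribosomal RNA depletion, while the molecule label names polyA RNA.

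Counts were rounded to whole numbers, and groups were taken from the titles. edgeR 4.0.16 (R 4.3.3) kept 15179 of 22640 counted genes with filterByExpr and fitted all 9 libraries with a mean per group (TMM, robust quasi-likelihood fit, Benjamini-Hochberg adjustment). Log CPM used a prior count of 2. At these depths 3 counts correspond to 0.163 to 0.207 CPM. In a simulation of EPZ-6438 against N2B27 on 15085 genes, 61.2% of 1.5-fold and 77.0% of 2-fold changes were recovered, with 11 false calls. It changed a far smaller share of genes than the 24.7% called in the data, and no library stood apart like PXGL replicate 1. Its figures may therefore not hold for the data. Coordinates and exon lengths came from GENCODE 29, to which 36547 of 40332 symbols matched, and start windows from RefSeq on GRCh38.p14. All 10 genes matched both.

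The genes and lists were chosen with earlier results of these data known. Every one of the 10 genes is named, and of the wider lists up to 4 called genes per list and comparison with the smallest adjusted p, or others where a count of 5 or fewer needed names. Some genes of the wider lists are not reported here. TFCP2L1, GBX2, TIMP1, SOCS1 and SOCS2 were also named as members of their lists after their values were seen. Alternatives were DESeq2 1.42.0 size factors, DESeq2's test, no and a stricter low-count filter (1 CPM in 3 libraries), fits of only the groups compared, a replicate block and leaving out each library.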

Additional observations from a re-analysis of the deposited data

How the results depend on the processing

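Of 450 values of the 10 genes under 15 alternatives, 427 kept their direction and their side of the threshold. The calls for LIFR, IL6ST, OSMR, PIM1 and GADD45G with EPZ-6438 against N2B27 held under every alternative run, as did those for SOCS3, PIM1, BCL3, JUNB and SBNO2 in N2B27 against PXGL. With EPZ-6438 against N2B27, 3752 genes were called, 5641 with only these groups fitted and 2762 to 5770 when 1 library was left out, the highest without PXGL replicate 1. Between 0 and 1 of the 10 genes was then lower, 0 without N2B27 replicate 1, when the STAT3 call ended. In N2B27 against PXGL 3 to 5 genes were lower, 5 without PXGL replicate 1, when LIFR and IL6ST were called. The direction of values near 0 turned. SOCS3 with EPZ-6438 against N2B27 had a log2 difference of -5e-04 with no low-count filter and of -0.11 to 0.086 leaving out 1 library. In N2B27 against PXGL, IL6ST was at 0.011 with DESeq2 size factors, 0.012 with DESeq2's test, 0.0066 with no filter and 0.0073 with only these groups fitted. Leaving out 1 library gave -0.10 to 0.062 for IL6ST, -0.095 to 0.22 for OSMR and -0.12 to 0.042 for STAT3. None of these values is called with all 9 libraries. The cause was not tested.

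Same-numbered libraries of different groups did not deviate together (correlations of -0.026 to 0.037), so the numbers were not taken to pair them. With a replicate block 3696, 8507 and 8489 genes were called, against 3752, 8505 and 8515 without it, and no call of the 10 genes changed. DESeq2 size factors moved the median of all genes by -0.01 to 0.02 on the log2 scale. Counts were low for GADD45G (7 to 12 per library in N2B27, 14 to 30 in PXGL), SOCS3 in PXGL (21 to 36) and BCL3 in N2B27 (28 to 37), which limits the precision of their fold changes. Counting intervals do not include duplicate reads, and 3 libraries per group bound the precision of every value.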

Other observations

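Relatives of the 10 genes gave further values. GADD45A, of the family of GADD45G, had 38.0, 37.1 and 34.0 CPM in the inhibitor libraries, 17.9, 19.97 and 17.5 CPM in N2B27 and 13.8, 10.9 and 8.39 CPM in PXGL. It rose 1.97-fold with EPZ-6438 against N2B27 (edgeR adjusted p = 4.28e-05) and 1.68-fold in N2B27 against PXGL (adjusted p = 0.000312). GADD45B rose 1.53-fold in N2B27 against PXGL (adjusted p = 0.000255) and did not pass with the inhibitor against N2B27 (adjusted p = 0.559).

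JUN, an AP-1 gene like JUNB, had 29.5, 28.2 and 28.6 CPM in the inhibitor libraries, 17.7, 14.0 and 14.0 CPM in N2B27 and 4.99, 4.99 and 6.997 CPM in PXGL. The 3 groups did not overlap. JUN was 2.69-fold higher in N2B27 than in PXGL (adjusted p = 4.76e-07), where JUNB was 1.91-fold lower. NFKB2, which encodes the NF-κB subunit p100 and its product p52, a partner of the BCL3 protein, rose 1.76-fold with the inhibitor against N2B27 (adjusted p = 7.32e-08) and fell 1.55-fold in N2B27 against PXGL (adjusted p = 3.14e-07). SBNO1, the relative of SBNO2, fell 1.49-fold in N2B27 against PXGL (adjusted p = 4.23e-05).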
